A study of Homo sapiens with 19 samples.

Results

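AKAP8, a nuclear A-kinase anchoring protein that also binds RNA, was mapped on the transcripts of epithelial cells by eCLIP (enhanced crosslinking and immunoprecipitation). All 24637 peaks of the merged epithelial list are described here, of 55027 peaks in the lists of both cell states, and none was removed. HMLE/Twist-ER is an immortalized line of human mammary epithelial cells engineered with Twist-ER, a Twist protein joined to the ligand-binding part of an estrogen receptor. Tamoxifen activates the fusion and the cells then undergo epithelial-mesenchymal transition (EMT). Every group therefore carried Twist-ER, the untreated one as well. Untreated cells stood for the epithelial state (EPI), and cells given 20 nM tamoxifen for the mesenchymal state (MES). In each state 2 libraries were made from AKAP8 immunoprecipitates (IP) and 2 from size-matched inputs. The authors' merged list gives 1 log2 ratio and 1 adjusted p per peak. How the replicates were combined into these values was not tested. No column gives the replicates separately, so no spread between eCLIP replicates was computed, and the states were set side by side without a test. Splicing and transcript levels of the bound genes came from RNA-seq of untreated cells, 3 libraries with a non-specific shRNA (EPI control) and 3 with an shRNA against AKAP8 (EPI knockdown). Reads on the junctions of skipped exon events numbered 31258177 to 38997923 per library, where a read shared by several events is counted in each. A single line was studied, and the shRNA lowers AKAP8 without removing it.

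In eCLIP, ultraviolet light links a protein to the RNA it touches, the protein is precipitated, and the RNA fragments that come with it are sequenced next to an input of the same size range. The peaks mark stretches where the precipitate holds more reads than the input, so they can lie in introns that are later spliced out. AKAP8 is known for anchoring protein kinase A in the nucleus, for a part in chromosome condensation, and for binding pre-mRNA together with hnRNP proteins. Runs of guanine (G) in introns are known as elements that hnRNP proteins such as hnRNPF and hnRNPH read during exon choice, and several runs close together can fold into a 4-stranded structure.

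The label of the cells was checked against fixed markers. Markers were counted by listed junctions of skipped exon events, before the filter on reads used for testing. Of the 16 epithelial markers 13 had a listed junction, and all 13 had a mean of at least 10 scaled reads in the EPI controls. The highest level per nt of junction was that of the basal keratin KRT5 with 263 scaled reads per nt, followed by KRT14 with 195. CDH1, the gene of E-cadherin, had 7715, 9855 and 8621 scaled reads in the 3 controls. Of the 15 mesenchymal markers 10 had a listed junction, and 7 of these had a mean of at least 10 scaled reads in the EPI controls. FN1 (fibronectin) and VIM (vimentin) were also abundant with 164 and 50.3 scaled reads per nt. QKI had 1.99 and COL1A1 0.995 per nt, whereas CDH11 had 0.0211, ZEB1 0.00671 and ZEB2 0.00498 per nt. CDH2, SNAI1, SNAI2, TWIST1 and TWIST2 had no listed junction. CD68 was the only immune marker with a listed junction, at 649, 858 and 726 scaled reads. The other 4 immune markers and the 4 endothelial markers had no listed junction, so these reads do not show whether they were expressed.

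The sequences under 8 of the peaks show what the list is made of. They were chosen as the intronic peaks with the highest log2 ratio of the list, of the 3 genes with the most peaks, of the epithelial marker with the most peaks and of AKAP8 itself, and as both peaks of CLSTN1, whose exon is described later. In PLCH2 a peak outside the introns of basic transcripts had a higher ratio. Each is intronic, is written 5′ to 3′ along the RNA with T for U, and is taken from the GRCh37 genome, and capitals mark each run of 3 or more G.
SQSTM1 intron 1, chr5:179248558-179248688, plus strand: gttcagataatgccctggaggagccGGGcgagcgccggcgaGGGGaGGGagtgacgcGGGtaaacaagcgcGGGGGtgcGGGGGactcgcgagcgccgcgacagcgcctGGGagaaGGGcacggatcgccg
RXRA intron 1, chr9:137250198-137250294, plus strand: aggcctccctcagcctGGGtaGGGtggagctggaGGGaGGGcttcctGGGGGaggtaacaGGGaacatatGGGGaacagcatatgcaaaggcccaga
PLCH2 intron 1, chr1:2402520-2402564, plus strand: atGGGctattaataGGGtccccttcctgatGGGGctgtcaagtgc
SEPTIN9 intron 1, chr17:75368809-75368885, plus strand: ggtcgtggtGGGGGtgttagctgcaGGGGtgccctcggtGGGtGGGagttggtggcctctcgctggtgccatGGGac
JUP intron 1, chr17:39928490-39928558, minus strand: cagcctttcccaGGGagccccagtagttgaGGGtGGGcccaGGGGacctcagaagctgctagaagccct
CLSTN1 intron 10, chr1:9797775-9797856, minus strand: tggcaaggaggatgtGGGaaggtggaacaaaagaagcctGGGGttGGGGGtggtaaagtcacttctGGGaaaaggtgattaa
CLSTN1 intron 1, chr1:9883535-9883640, minus strand: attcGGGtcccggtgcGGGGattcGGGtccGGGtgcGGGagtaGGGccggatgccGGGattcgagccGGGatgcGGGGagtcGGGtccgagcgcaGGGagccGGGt
AKAP8 intron 1, chr19:15490043-15490129, minus strand: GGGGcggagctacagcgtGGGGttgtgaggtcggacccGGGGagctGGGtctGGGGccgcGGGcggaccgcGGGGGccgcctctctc
The peak in SQSTM1, an autophagy receptor, had the highest log2 ratio of the whole list (7.10) and holds 8 runs of at least 3 G, the longest of 5. The 3 peaks of the most often bound genes hold 7 runs in RXRA, 3 in PLCH2 and 5 in SEPTIN9. The stretch in JUP, the gene of γ-catenin, holds 4 runs. The peak in intron 1 of CLSTN1 holds 12 runs in 106 nt, and the weaker one in intron 10 holds 4. The AKAP8 stretch holds 7 runs and is 50.6% G.

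Letters were counted in a window of 100 nt around the centre of every EPI peak, on the strand of the RNA, and in windows of the same length 500 nt before and after. G made up 44.28% of the bases at the peaks, against 33.25% before and 31.82% after. A run of 3 G (GGG) was present in 99.91% of the 24637 windows (95% Clopper-Pearson interval 99.87 to 99.95, which covers counting error only), against 91.02% before and 89.42% after. Longer or repeated runs separated the peaks from their surroundings more than GGG did. GGGG was present in 92.41% of the windows, against 60.07% and 56.91%. A pattern of 4 runs, each of at least 3 G and with 1 to 7 bases between them, was found in 28.75% of the windows at the peaks, against 6.84% before and 5.50% after. The median window held 6 runs at the peaks and 3 in either flank. On the opposite strand the picture was turned around, since CCC was present in 72.44% of the windows at the peaks and in 85.66% and 84.42% of the flanks.

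**Figure D1:**
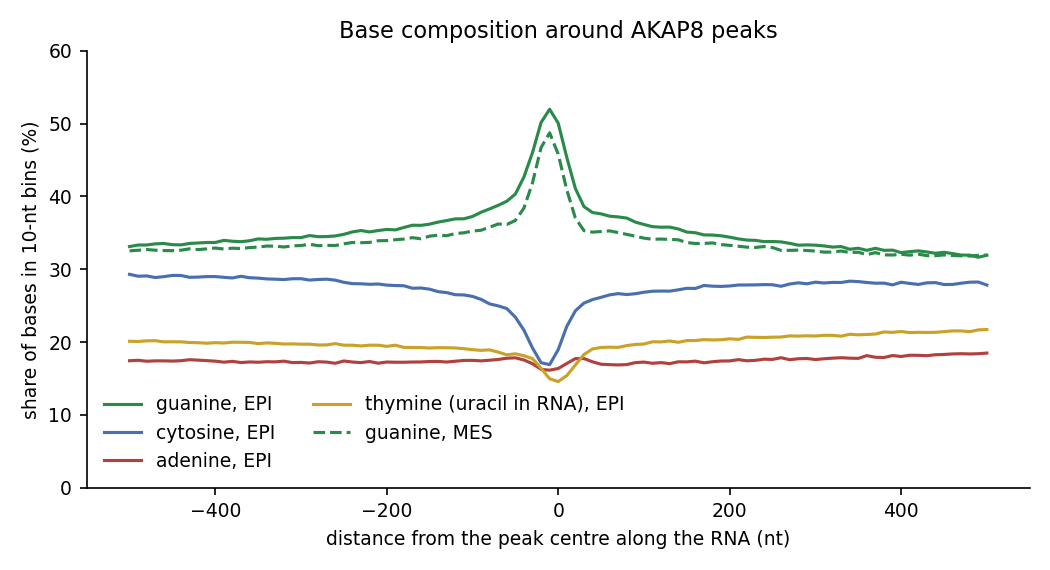
Share of each base (%) in bins of 10 nt against the distance (nt) from the centre of the peak along the RNA, over the 24637 EPI peaks (solid lines) and, for guanine, the 30390 MES peaks (dashed line). Guanine reached 51.97% just before the centre of the EPI peaks, while cytosine dropped to 16.91% in the same bin.

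Of all 1024 words of 5 letters, those with the largest rise at the peaks were GGGAG (69.2% of windows at the peaks and 32.0% of the flanks), GAGGG (63.1% and 27.4%) and GGAGG (68.3% and 33.2%). A GGG stood in 15 of the 20 words with the largest rise and in 0 of the 20 with the largest fall, which were led by CCTCC (11.7% and 26.3%). Words overlap one another, so these counts are not independent. The G content was close to the same in every region, from 41.2% in noncoding exons to 47.1% in coding sequence, and each of these lay above its own flanks (29.8% and 38.5%). Within introns, the pattern of 4 runs was held by 37.1% of the proximal peaks and 25.6% of the distal ones, with 7.74% and 5.40% in their flanks. With the peaks in 4 equal groups by log2 ratio, it was least frequent in the lowest group (24.3%) and lay between 29.2% and 30.8% in the other 3. A GGG was missing from 21 of the 24637 windows. For comparison, the windows at the MES peaks held 40.59% G, GGG in 99.61%, GGGG in 87.55% and the pattern of 4 runs in 18.47%. A match of these letters describes the windows and is not evidence of a bound site or of a folded structure.

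The log2 ratio of IP over input had a median of 3.67 over the EPI peaks, with 2.67 at the 10th and 4.73 at the 90th percentile. The −log10 adjusted p had a median of 7.85, and 298 peaks stood at the highest value in the list, 400. The peaks were short, with a median width of 62 nt and a range of 1 to 205 nt. A log2 ratio of at least 2 together with a −log10 adjusted p of at least 3 was met by 21665 peaks (87.9%). The other peaks fell short mainly on the p, since 2899 had a −log10 adjusted p under 3 and 780 a log2 ratio under 2. These deposited values are the result of the authors' peak calling and normalization and are given as a description.

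Many entries of the list describe the same stretch of RNA. Of the 24637 peaks, 15461 (62.8%) overlapped another EPI peak on the same strand, in 9492 pairs. In 70.0% of these pairs at least 90% of the shorter peak was covered, and in 13.0% both the log2 ratio and the p were identical. The list could be divided into 2 sets with 0 overlaps left inside either, so that no stretch was listed more than once per set. Whether the sets stem from the 2 replicates or from the merging was not tested, and no column names them, so they were not used as replicates. Joining overlapping peaks left 15145 sites, and 9176 peaks overlapped no other. Counts of peaks in a gene are therefore larger than counts of sites in many genes.

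The ratios also fell on steps. With a constant of -1.46 on the log2 scale taken off, 50.5% of the EPI ratios were whole numbers within 0.01, and 87.9% were whole numbers over a divisor of at most 6, where 2% of the number line lies within this tolerance of a whole number and more of it once divisors are allowed. The median of the whole numbers was 38. The read counts behind the ratios were not used here, and the origin of these steps was not tested. The p attached to a ratio was computed without a replicate spread that can be checked here.

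Introns held nearly all EPI peaks. The centre of 66.1% lay in a distal intron (more than 500 nt from a splice site; 95% interval 65.5 to 66.7) and that of 24.4% in a proximal intron (23.8 to 24.9). The remaining peaks were spread over 5′UTRs (2.94%), 3′UTRs (2.02%), exons of noncoding transcripts (0.881%) and coding sequence (0.836%, 206 peaks). Another 2.69% lay inside a gene but outside its basic transcripts, the subset of transcript models that the annotation marks as full-length representatives, 8 peaks were antisense to a gene and 37 intergenic. The MES list had 77.2% in distal and 15.7% in proximal introns. Over sites instead of peaks the EPI shares were 65.1% distal and 25.1% proximal.

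**Figure D2:**
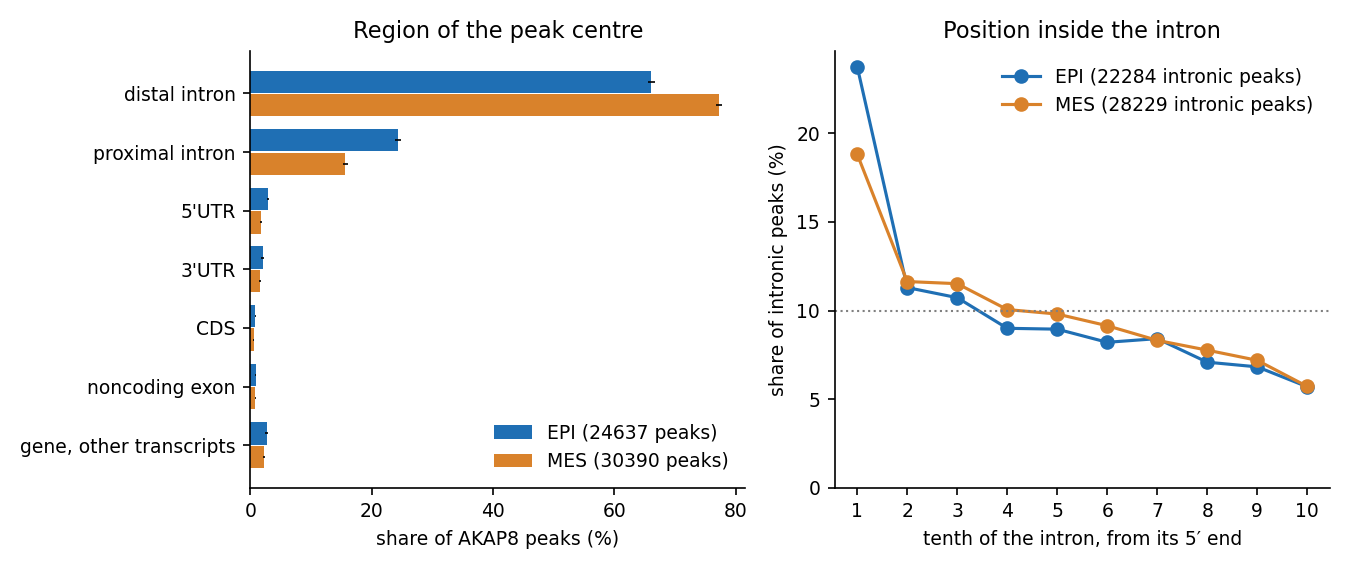
Left, share of AKAP8 peaks (%) by the region of the peak centre in the EPI (blue) and MES (orange) lists, with 95% Clopper-Pearson intervals. Right, share of intronic peaks (%) in each of 10 equal parts of the intron from its 5′ end, where an even spread would give the dotted line; the first of the 10 parts held 23.8% of the EPI and 18.8% of the MES peaks.

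Within introns the EPI peaks leaned towards the 5′ end. Intron 1 held 54.7% of the 22284 intronic peaks, while it made up 40.6% of the intron sequence of the bound genes. With each intron divided into 10 equal parts, the first held 23.8% of the peaks and the last 5.70%. Within 500 nt of the 5′ splice site lay 20.6% of the intronic peaks (interval 20.1 to 21.1), and within 500 nt of the 3′ splice site 7.997% (7.64 to 8.36), whereas 11.4% of the intron sequence of these genes lay within 500 nt of either. The corresponding MES shares were 12.1% and 5.39%. Close to the start of the gene, within 1 kb, lay 11.1% of the EPI peaks and 5.71% of the MES peaks. The introns of the EPI peaks had a median length of 10573 nt, counted once per peak. All introns of the bound genes, each counted once, had a median of 1496 nt. A long intron offers more room for peaks, so this difference does not show a preference for long introns. These shares were not adjusted for intron length.

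Among the 206 coding peaks, 64 lay in a single small gene model, ENSG00000289747 on chromosome 3 (GRCh37, 195635566 to 195636432), which is placed within the kinase gene TNK2 on the same strand. It had the highest density of all genes with at least 10 peaks, 73.8 peaks per kb. Reads cannot be divided between it and TNK2, so the coding share depends on this model. The next densest genes were OAZ1 (9.79 peaks per kb), which encodes the antizyme of ornithine decarboxylase, the lncRNA ENSG00000267090 (8.08), the tetraspanin gene TSPAN4 (7.04) and the dopamine receptor gene DRD4 (6.69). In OAZ1 all 39 peaks lay in intron 1, and in the lncRNA all 10.

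The EPI peaks were placed in 2754 genes, of which 2548 were protein-coding and 174 lncRNA genes. With a log2 ratio of at least 4 there were 1214 genes, and with a −log10 adjusted p of at least 10 there were 1211. The 177 genes with the most peaks were enough for 50% of the list, and 874 genes had a single peak. RXRA, the retinoid X receptor that pairs with other nuclear receptors, had the most with 399 peaks at 195 sites, 330 of them in intron 1. It was followed by PLCH2, a phospholipase C, with 367 peaks at 157 sites, SEPTIN9, a cytoskeletal GTPase, with 272 at 176, and PLEC, the plakin that ties intermediate filaments to other structures, with 248 at 93. The next were VAV2, a guanine nucleotide exchange factor (244 peaks), the mitotic checkpoint gene MAD1L1 (214), the receptor gene NOTCH1 (207) and SKI, a repressor of TGF-β signalling (184). MIRLET7BHG, the host transcript of let-7 microRNAs, was the only lncRNA among the first 15, with 178 peaks. It was followed by TSPAN4 (171). Others among the first 15 were the glypican GPC1 (148), the membrane-bending adaptor BAIAP2 (135), the semaphorin receptor PLXNA1 (134) and the mitochondrial ribosomal protein gene MRPL23 (132). The order of close neighbours rests on counts without a replicate and is descriptive, and by sites SEPTIN9 stood before PLCH2. In PLCH2 80 peaks lay in distal introns, 33 in proximal introns and 7 in 5′UTRs of basic transcripts, and 0 in coding sequence or 3′UTRs. Most of its 367 peaks thus lay in none of these regions.

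**Figure D3:**
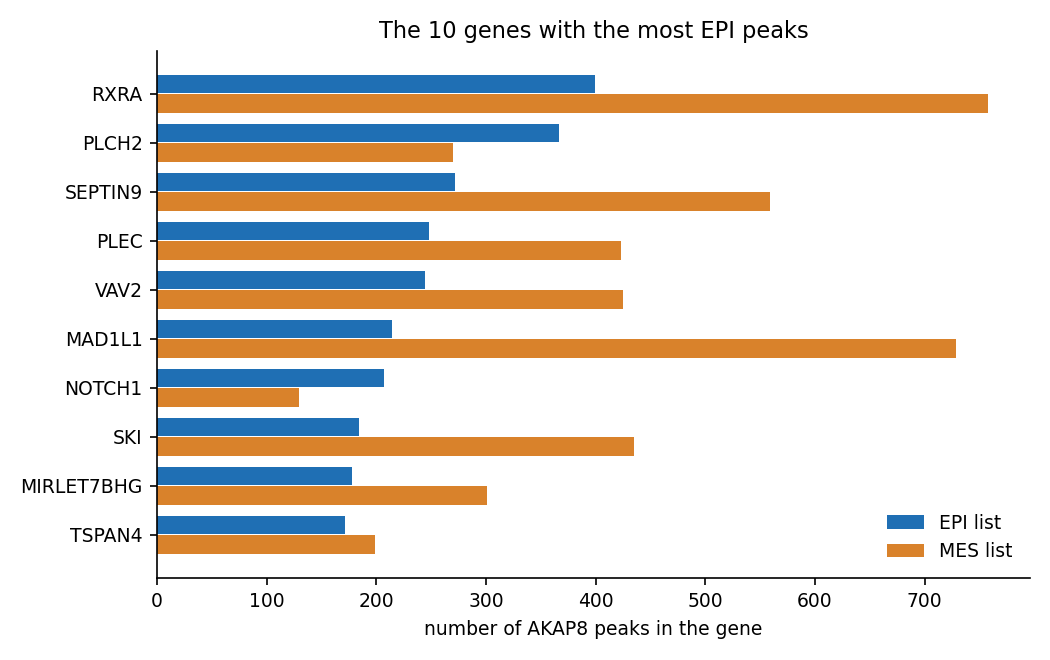
Number of AKAP8 peaks in the 10 genes with the most EPI peaks, in the EPI list (blue) and in the MES list (orange). RXRA had 399 EPI and 758 MES peaks, while PLCH2 and NOTCH1 had more EPI than MES peaks; the totals are 24637 and 30390.

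Individual peaks stood out by ratio, by p or by width. By log2 ratio the SQSTM1 peak printed above led, followed by overlapping pairs in intron 1 of PLEC (7.07 and 7.02), intron 1 of KLF10, a transcription factor induced by TGF-β (6.97 and 6.96), MICALL2 (6.90 and 6.88) and intron 3 of TSPAN4 (6.80 and 6.79), and by 1 peak in PLCH2 (6.67). In 4 of these genes both members of an overlapping pair were thus among the 10 highest. The 298 peaks with the highest −log10 adjusted p in the list, and so the smallest p, were led, by ratio, by ENSG00000289747 (5.77), TSPAN4 (5.72) and PLEC (5.54), and several of these leading peaks were very short, such as 7 nt in ENSG00000289747 and 6 nt in PLEC. The widest peaks were 194 to 205 nt long and lay in introns of MADCAM1-AS1, the tubulin cofactor gene TBCD, C7orf50, the decay factor gene UPF2 and TMCO3. Their log2 ratios ranged from 2.58 to 4.39.

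Peaks also lay close together. With a gap of at most 100 nt, 76.5% of the EPI peaks shared a cluster with another peak. Overlapping entries of 1 site count here as a cluster, and 48.1% of the peaks lay in a cluster of at least 2 separate sites. The cluster with the most peaks was that of TNK2 and ENSG00000289747, with 78 peaks at 16 sites in 1035 nt. It was followed by clusters in intron 1 of LRRC41 (41 peaks at 9 sites), HMGA2, a chromatin protein of developing and tumour tissue (37 at 8), PLEKHG5, a guanine nucleotide exchange factor (33 at 8), and CYP27C1, an enzyme of retinoid metabolism (32 at 4). In the MES list these 5 stretches held 33, 31, 12, 2 and 7 peaks.

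Gene groups fixed in lists were bound to unequal degrees, and are given beside the 12.6% of all 20176 protein-coding genes that had an EPI peak, and for the MES list beside 1833 of these 20176. These 20176 are counted whether or not they are expressed in these cells. Of the 10125 genes tested for level 21.3% had an EPI peak. Epithelial markers had a peak in 8 of 16 genes, with 86 peaks at 49 sites. JUP had 34 of these peaks, ITGB4, an integrin of hemidesmosomes, 29, the transcription factor GRHL2 9, CDH1 6, the tight junction protein OCLN 4, KRT8 2, and the splicing factor ESRP2 and KRT17 1 each. In the MES list a single one of the 16 had peaks (2 in ITGB4). KRT5 and KRT14, the epithelial markers with the highest level per nt, had none, and neither had LAMB3. Mesenchymal markers had a peak in 2 of 15 genes (TWIST2 with 6, ZEB1 with 1), and 7 of 15 in the MES list. The 5 immune markers had 0 peaks in either list, and so had the endothelial markers CDH5, VWF and KDR, while PECAM1 was left out of this peak count.

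The wider group of adherens and tight junction genes had peaks in 10 of 18 members. After JUP, the most were in NECTIN1 (22), a nectin adhesion receptor, and CDH1 (6), whereas the claudins CLDN1, CLDN4 and CLDN7 had 0. Genes of the actin and plakin cytoskeleton were bound in 15 of 24 cases, with 385 peaks, of which PLEC alone held 248. The actin crosslinker ACTN1 had 33 and the non-muscle myosin MYH9 23. No list was adjusted for gene length or expression.

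Among the genes of RNA-binding proteins, the hnRNP family stood at 11 of 26 members with 103 peaks at 61 sites. PTBP1, the polypyrimidine tract binding protein, had 40 peaks, all in introns, HNRNPF had 15 and HNRNPUL1 11. HNRNPM had 0. SR splicing factors were bound in 1 of 16 cases (SRSF6, 1 peak). Splicing regulators known from EMT were bound in 4 of 13 cases, with 40 of the 46 peaks in PTBP1, 3 in CELF1, 2 in RBFOX2 and 1 in ESRP2, and ESRP1 and QKI had 0. Of the AKAP genes 3 of 15 had peaks, 11 in AKAP8, 5 in AKAP17A and 2 in AKAP8L. The 11 peaks of AKAP8 formed 9 sites, 9 of the peaks in intron 1, with log2 ratios from 1.83 to 4.42. A mixed list of condensin genes, protein kinase A genes and others was bound in 4 of 17 cases. WDR5 had 12 of the peaks and the helicase gene DDX5 2, and neither is a condensin or protein kinase A gene. The condensin genes NCAPH and NCAPH2 had 1 each, and none of the listed protein kinase A genes had a peak.

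Ribosomal protein genes had peaks about as often as all annotated protein-coding genes, which were counted whether or not they are expressed here. Of 81 ribosomal protein genes 10 had a peak (12.35%, against 12.63%), with 24 peaks in all and at most 6 in a gene (RPL36), followed by 4 each in RPL28 and RPS9. Of the 10125 genes tested for level 21.3% had an EPI peak, and 27.0% in the highest of 10 groups by level, both above the ribosomal share. The 10 bound ribosomal protein genes had a median level of 63.2 reads per nt in the EPI controls. Among 17 long noncoding and snoRNA host transcripts 5 had a peak. NEAT1, the scaffold of paraspeckles, held 27, of which 23 stood at the highest −log10 adjusted p of the list with log2 ratios of at most 4.03. KCNQ1OT1 had 5 and MEG3 4, whereas the nuclear RNA MALAT1 had 0.

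In the overlap of the 2 cell states, 15170 EPI peaks (61.6%, interval 61.0 to 62.2) shared at least 1 nt with a MES peak, and 49.4% of the MES peaks overlapped an EPI peak. With a log2 ratio of at least 3 in both lists these shares were 43.97% and 44.53%, and with at least 4 they were 18.47% and 25.3%, so that the order of the states turned around. By sites the shares were 53.5% of the EPI and 42.8% of the MES sites. EPI peaks with a MES counterpart had a median log2 ratio of 3.82 and 20.1% of them lay in proximal introns. The 9467 without one had a median of 3.48, with 31.3% in proximal introns, and 67.2% of them nevertheless lay in a gene with a MES peak elsewhere. Over the overlapping peaks the log2 ratios of both states were weakly related (Pearson r = 0.14, n = 15170 peaks from the same libraries, given as a description). Of the 2754 genes with an EPI peak, 1587 (57.6%) had a MES peak, which is 78.7% of the 2016 MES genes. PRKCZ, a kinase of cell polarity, had 116 EPI and 0 MES peaks, and was singled out after its values were seen. Genes transcribed in only one state cannot yield peaks in both, and MES transcript levels were not analysed here.

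Levels of the bound genes were read from scaled junction reads, the summed reads on the junctions of all skipped exon events of a gene, which cover only genes with such an event. In bulk RNA fewer cells of a type and less RNA per cell cannot be told apart. Of 10125 genes tested 2159 (21.3%) had an EPI peak. Their median level in the EPI controls was 1.17 reads per nt, against 0.966 for genes without a peak. With the genes in 10 equal groups by level, the share of bound genes was 10.4% in the lowest group, 19.7% to 23.99% in groups 2 to 9, and 27.0% in the highest. Across the 2159 bound genes the number of peaks was hardly related to the level per nt (Spearman correlation 0.02) or to gene length (0.04), given as descriptions across genes.

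**Figure D4:**
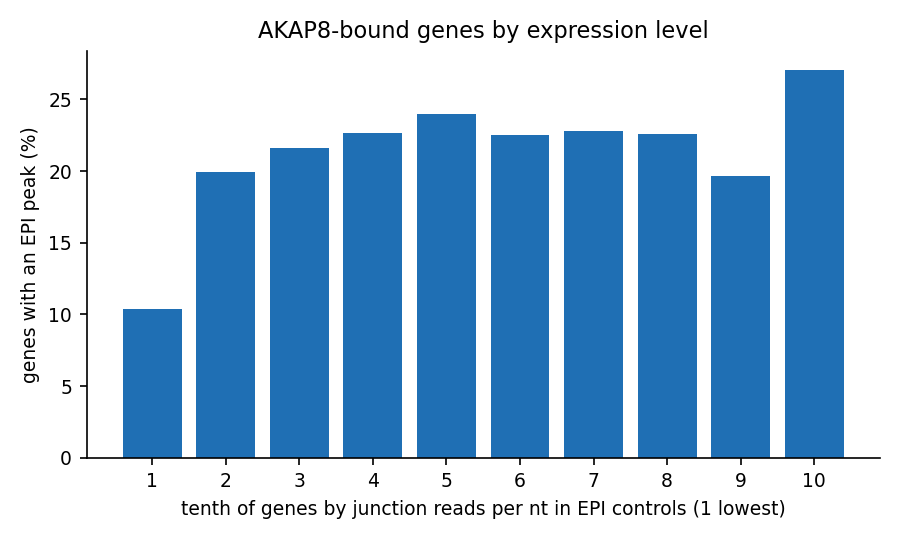
Share of genes with an EPI peak (%) in each of 10 equal groups of the 10125 genes tested, ordered by junction reads per nt in the EPI controls. The lowest group held 10.4% bound genes and the highest 27.0%, with no steady rise in between.

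The knockdown was checked first on AKAP8, itself a gene with EPI peaks. Its scaled junction reads were 329, 402 and 308 in the EPI controls and 154, 117 and 147 after knockdown. All 3 knockdown libraries lay below all 3 controls, with a mean of 139.5 ± 19.6 (SD, n = 3) against 346 ± 49.2 (SD, n = 3). The log2 fold change was -1.31 with a standard error of 0.21, and the adjusted p from limma over all genes was 0.126. These p-values measure the spread between the 3 libraries of a group, which the methods describe as biological replicates. An exact two-sided permutation test gave p = 0.1, the smallest that 3 libraries against 3 can give.

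At an adjusted p under 0.05 and a log2 fold change over 1 in either direction, 2 of all 10125 genes were called after knockdown (0.0198%), and 0 of the 2159 bound genes. The called genes were AREL1, an E3 ubiquitin ligase, which fell, and LOX, the collagen crosslinker lysyl oxidase, which rose, and neither had an EPI peak. Without any 1 of the 3 control libraries, or without the first knockdown library, 0 genes were called, and 6 were with scaling by total junction reads, none of them bound. Without the second knockdown library 38 genes were called, 11 of them bound and 10 of these lower, so that the count of 0 bound genes rests on that library. At an unadjusted p under 0.05 there were 224 bound genes (10.4%), against 904 of all genes (8.93%). The median log2 fold change was -0.02 over the bound genes and 3.23e-05 over all genes, and 53.2% of the bound and 49.995% of all genes had a lower mean after knockdown. The bound genes with the smallest p, none of which passed with all 6 libraries, were ANKRD52 (log2 fold change 1.16), AKAP8, RANBP3 (-1.01), NINJ1 (-1.64) and CAPN12 (-1.24), with adjusted p from limma between 0.126 and 0.178. ANKRD52, AKAP8, RANBP3 and NINJ1 were among the 11 bound genes called without the second knockdown library.

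ANKRD52, a subunit of a phosphatase complex, had 385, 482 and 506 scaled reads in the controls and 1012, 1109 and 941 after knockdown, without overlap. NINJ1, a membrane protein of cell rupture, had 778, 756 and 437 reads in the controls and 211, 253 and 158 after knockdown. RANBP3, a nuclear transport cofactor, went from 2300, 2861 and 2111 to 1238, 1217 and 1121. These 3 genes had 2, 12 and 3 EPI peaks and were chosen here for their p, so their separation is a description. The genes with the most peaks were not among them. PLCH2 had 788, 592 and 936 scaled reads in the controls and 639, 698 and 697 after knockdown (log2 fold change -0.16, SE 0.20). SEPTIN9 had 1187, 1424 and 1034 against 1191, 1631 and 895 (log2 fold change -0.0025, SE 0.24), and PLEC 6283, 7800 and 7249 against 5281, 8043 and 5994 (-0.16, SE 0.19). In all 3 the groups overlapped. VAV2 had no overlap, with 1821, 2623 and 2729 against 2916, 4340 and 3016 (log2 fold change 0.52, SE 0.22, adjusted p = 0.552 from limma). The share of all tested genes without overlap was not counted.

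Of the bound members of the fixed lists, none passed with all 6 libraries, and AKAP8 passed without the second knockdown library. Among the 8 bound epithelial markers the median log2 fold change was 0.03, with CDH1 at 0.41 and ITGB4 at -0.49, which both had an unadjusted p under 0.05 and adjusted p of 0.504 and 0.462 from limma. CDH1 had 7715, 9855 and 8621 scaled reads in the controls and 12326, 12480 and 10057 after knockdown. ITGB4 had 34620, 45992 and 42440 in the controls and 24723, 33325 and 29610 after knockdown. Neither gene overlapped between the groups, but how many of all tested genes separate in this way was not counted. JUP overlapped between the groups, with 5536, 7966 and 5935 reads against 7468, 9607 and 5506. The 9 bound hnRNP genes tested had a median of 0.06, and PTBP1 stood at -0.0016 (SE 0.16). The 15 bound cytoskeletal genes had a median of 0.01.

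Splicing was compared in 47579 skipped exon (SE) events, of which 24 were called (0.0504%) at an FDR under 0.05 and a difference of at least 10 percentage points in PSI, the percent of transcripts that include the exon. Inclusion rose in 11 events and fell in 13, in 22 genes, of which 8 had an EPI peak, as had 2107 of the 9476 genes with a tested event. An EPI peak lay within 1000 nt of the exon in 1688 of the events tested (3.55%), in 712 genes, and 3 of these were called (0.178%). The 3 were too few for more than a description. At an unadjusted p under 0.05 the shares were 5.45% near a peak and 3.53% of all events, and the median absolute difference was 0.702 and 0.580 percentage points. Events near a peak had a median of 226 junction reads per library and all events 220. By gene, 4.06% of the 11832 events in bound genes had a p under 0.05, and 3.35% of the 35747 in other genes. Overlapping events of a gene share reads and are not independent.

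Over pairs of a peak and a tested exon, the peak lay more often before than after the exon. Over the 1260 distinct exons with a peak within 1000 nt there were 3435 pairs of a peak and an exon, of which 59.8% had the peak before, 1.83% over and 38.3% after the exon. Overlapping entries of a site count separately here, and a peak near several exons counts once for each. Over all intronic peaks the lean was the other way, with 20.6% within 500 nt of the 5′ splice site and 7.997% within 500 nt of the 3′ splice site.

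The clearest of the 3 called exons with a peak nearby was the 57-nt exon of CLSTN1 (GRCh37 chr1:9797556-9797612, minus strand), a calsyntenin of the cadherin superfamily. Its PSI was 34.4%, 34.3% and 30.4% in the EPI controls and 60.2%, 58.7% and 54.8% after knockdown. All knockdown libraries lay above all controls, and the means were 33.0% ± 2.25 and 57.9% ± 2.78 (SD, n = 3 each). Inclusion rose by 24.9 percentage points (FDR = 2.54e-16, quasi-binomial test moderated with limma). The exon rested on 790 to 1925 junction reads per library. A single EPI peak was found within 1000 nt, the intron 10 stretch printed above. It ends 162 nt before the exon, with a log2 ratio of 2.26 and a −log10 adjusted p of 3.57, and so was among the weaker peaks of the list. The paper ranks the AKAP8 site before this exon as the most enriched, a rank that the deposited values used here do not give.

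In TPD52L2, a tumour protein D52 family member, the 60-nt exon at chr20:62507169-62507228 (plus strand) had 5 EPI peaks at 3 sites within 1000 nt, all after the exon, at 432 to 930 nt. PSI was 71.2%, 76.8% and 76.1% in the controls and 67.2%, 58.7% and 63.3% after knockdown, without overlap. Inclusion fell by 11.6 percentage points (FDR = 0.000295, quasi-binomial test moderated with limma), from 74.7% ± 3.04 to 63.1% ± 4.26 (SD, n = 3 each). The 102-nt exon of ENTPD6, a nucleotide-hydrolysing enzyme, at chr20:25201868-25201969 (plus strand) had 1 peak, 852 nt after it. Its PSI was 72.3%, 70.4% and 72.9% in the controls and 79.1%, 91.7% and 87.1% after knockdown. The rise of 14.1 percentage points passed narrowly (FDR = 0.0476, quasi-binomial test moderated with limma), and the knockdown libraries spread more (SD 6.41) than the controls (SD 1.29). The peaks of highest log2 ratio near both exons are shown to compare them with those printed above, again with runs of 3 or more G in capitals.
TPD52L2 intron 4, chr20:62508108-62508161, plus strand: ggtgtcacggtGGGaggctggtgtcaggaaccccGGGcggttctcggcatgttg
ENTPD6 intron 10, chr20:25202822-25202870, plus strand: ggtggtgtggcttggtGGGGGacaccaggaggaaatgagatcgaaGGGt
Each holds 2 runs of at least 3 G, in 54 nt for TPD52L2 and 49 nt for ENTPD6. The sequences printed earlier hold at least 3 runs each, but all except that of PLCH2 (45 nt) are longer. The counts were not adjusted for length.

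**Figure D5:**
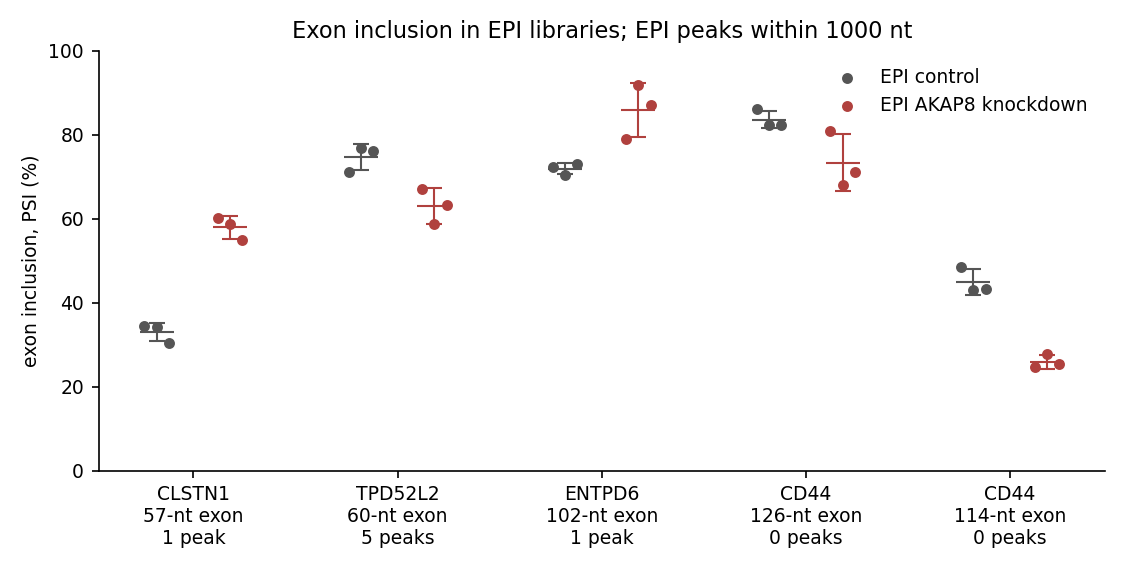
PSI (%) of the 3 called exons with an EPI peak within 1000 nt and of the 2 called CD44 exons, which had none, in the 3 EPI control and 3 EPI knockdown libraries. Points are libraries, with the mean and SD; CLSTN1 went from 33.0% to 57.9% and the groups do not overlap in any of the 5 exons.

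These 3 calls depended on the test, and those of TPD52L2 and ENTPD6 also on single libraries. With limma on the logit of PSI, 0 of the 47579 events were called, the smallest FDR was 0.0668 and 2481 events had an unadjusted p under 0.05, and CLSTN1 there had an unadjusted p of 0.0116 and an FDR of 0.862. CLSTN1 was called with any of the 6 libraries left out, TPD52L2 was lost without the second control library of the table, when it fell by 10.6 points, or the second knockdown library, when it fell by 9.44. ENTPD6 was kept only without the first knockdown library, and its rise was 11.16 to 14.56 points in the 5 fits in which it was lost.

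No peak lay within 1000 nt of the other 21 called exons, as of 96.45% of all tested events. CD44, the hyaluronan receptor whose variable exons are known to switch in EMT, had 0 EPI peaks in the whole gene in the list used here, and 2 of its exons were called. The paper, however, reports a significant AKAP8 peak before the v8 exon of CD44, and AKAP8 binding to an RNA oligo taken from it. So the 0 does not show that AKAP8 leaves CD44 RNA unbound. The 126-nt exon had PSI values of 86.1%, 82.4% and 82.3% in the controls and 80.9%, 68.1% and 71.1% after knockdown. The 114-nt exon had 48.5%, 43.1% and 43.2% against 24.7%, 27.8% and 25.4%. Mean inclusion fell from 83.6% to 73.4% in the former (FDR = 2.60e-07) and from 44.9% to 25.9% in the latter (FDR = 1.71e-06), both by the quasi-binomial test moderated with limma. The 126-nt exon no longer met the limit of 10 points without the first control library, when it fell by 9.03 points, without the second knockdown library, when it fell by 7.61, or without the third, when it fell by 9.13. Other called exons lay in genes with peaks farther away, FLNA with 5 peaks, MYO18A with 11, and APLP2, ADD3 and TPM1 with 1 each. In FLNA, the gene of filamin A, 1 of the 5 peaks lay between the exons that flank the called one. A long exon of MICALL2, a gene with 110 EPI peaks, had 8 peaks within 1000 nt and a PSI of 70.8% in the controls and 98.7% after knockdown on 31 to 61 reads per knockdown library, and it did not pass (FDR = 0.102, quasi-binomial test moderated with limma).

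Other kinds of splicing event were called rarely. The background was 0% of 2568 alternative 3′ splice sites, 0.062% of 1613 alternative 5′ splice sites, 0.0261% of 11489 mutually exclusive exons (MXE) and 0% of 1759 retained introns, in all 4 of 17429 events (0.023%). At an unadjusted p under 0.05 there were 147 alternative 3′ splice sites and 59 retained introns, the types with 0 calls. Of the 1071 events with an EPI peak within 1000 nt, 1 was called, an MXE pair of TPD52L2 at chr20:62514072-62520591. Inclusion of its first exon was 45.9%, 42.5% and 45.1% in the controls and 59.3%, 58.9% and 55.0% after knockdown, a rise of 13.2 percentage points (FDR = 0.0180, quasi-binomial test moderated with limma). The pair with the introns between its exons spans 6520 nt, and 19 EPI peaks at 12 sites lay in it or within 1000 nt, of the 39 peaks of the gene. A long span is more likely to have a peak nearby, and the MXE call was lost without the first control, the second control or the third knockdown library, where the rise was 13.87, 12.19 and 14.55 points.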

How the data were processed

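The eCLIP lists hold 1 line per peak, with the authors' log2 ratio of IP over size-matched input and −log10 adjusted p. Each list merges 2 replicates of a state, and no column gives the values of a replicate. The splicing tables hold junction read counts per event, which the authors made with rMATS from STAR alignments to GRCh37, for 3 EPI control and 3 EPI knockdown libraries. The submitters' processing notes also name DESeq2 and featureCounts 1.5.0. Columns with the authors' own fold changes, p-values, FDR and inclusion differences were not used, nor were the MES and EMT splicing tables or the gene table. Peaks were placed by their centre on the GENCODE 44 annotation mapped back to GRCh37 (the authors worked with an older release), with 1 gene per peak and bound genes matched by gene identifier. The intervals of shares are 95% Clopper-Pearson intervals. Sequences were read from the GRCh37 genome, where 99.93% of 41705 SE exons were preceded by AG and 98.96% were followed by GT.

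PSI was computed from length-normalized counts for events with a mean of at least 20 junction reads per library. It was tested with a quasi-binomial model whose dispersion was moderated with limma 3.58.1 (statmod 1.5.0, R 4.3.3), and p-values were adjusted by Benjamini-Hochberg over each type of event. Gene levels were summed skipped exon junction reads, scaled by median of ratios, kept at 10 or more in at least 2 libraries and tested with limma on log2(value + 1). Both tests were checked on simulated data. Where extra variance per read was held constant, very deep events were called too often on FDR alone, and the limit of 10 percentage points removed these calls. Other steps used Python 3.11.15, numpy 2.4.6, pandas 2.3.3, scipy 1.17.1 and pysam 0.24.0. The genes named were the 15 with the most peaks (1 of these is not reported here), the peaks highest by ratio or −log10 adjusted p and the widest, the 5 largest clusters, the 5 densest genes, every called event near a peak, the 5 bound genes with the smallest p where none was called, the leading members of fixed lists, and AKAP8, HNRNPM, CD44 and CLSTN1. Other named members and called exons were added after their values were seen. The members and lists were chosen with earlier results of these data known. Alternatives were other thresholds, distances, transcript priorities, filters, scalings and tests, and leaving out each library.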

Additional observations from a re-analysis of the deposited data

How the results depend on the processing

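The share of EPI peaks in proximal introns (24.37%) became 23.0% at a log2 ratio of at least 4, 25.31% at a −log10 adjusted p of at least 10, 26.24% when introns took priority over exons, 23.21% in protein-coding genes alone, and 10.76% or 38.42% with a limit of 200 or 1000 nt. Over 1 peak per site, an alternative chosen after seeing the data, it was 25.12%. The 2754 genes with a peak dropped to 1214 at a log2 ratio of at least 4 and to 1211 at a −log10 adjusted p of at least 10. The share in clusters (76.53%) was 73.6%, 85.03% and 88.23% with gaps of 50, 500 and 1000 nt, 80.6% and 84.31% at log2 ratios of at least 3 and 4, and 48.1% for clusters of separate sites, the last chosen after seeing the data. The overlap with MES peaks (61.57%) was 58.56% where 0.5 of the peak had to be covered, 60.9% with centres within 50 nt, and 43.97% and 18.47% at log2 ratios of at least 3 and 4 in both lists. The share of MES peaks that overlap an EPI peak, lower as deposited (49.39%), was then 44.53% and 25.3%, so that the order of both shares turned around. With alternatives chosen after seeing the data the EPI share was 58.07% at both cutoffs and 53.54% over sites. GGG was held by 97.28% of the peaks themselves (76.2% in the flanks) and 99.98% of 200-nt windows (97.94% in the flanks), against 99.91% and 90.22% with 100 nt. The 24 called SE events became 0 with limma on the logit of PSI (2481 with an unadjusted p under 0.05) and 9 at a PSI difference of at least 0.2, and 17 to 30 with 1 library left out. The 3 near a peak became 0 with the logit, 1 within 250 nt and 0 with peaks of log2 of at least 4, and 1 to 5 with 1 library left out. The lowest count came without the second control or the second knockdown library, and the highest without the first knockdown library. The 1 call of the other types ranged from 0 to 15, the latter without the first knockdown library, when 112 MXE events were called in all. It was 3 without the third control and 2 without the second knockdown library. The count of bound genes called ranged from 0 to 11, the latter without the second knockdown library, when 38 genes were called in all and 10 of the 11 bound genes, AKAP8 among them, were lower. The cause of these changes was not tested. The called events of CLSTN1, TPD52L2, ENTPD6 and CD44 kept their direction under the alternatives run for them. No paired analysis was possible because the splicing tables list the 3 libraries of a group in 1 field without replicate numbers. The eCLIP values are not given for each replicate, which limits what they can show.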
